A study of Mus musculus with 6 samples.

Results

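Connexins are the proteins of gap junctions, the channels through which neighbouring cells exchange ions and small molecules. Connexin subunits assemble into a hemichannel in the membrane of one cell, which docks with a hemichannel of the next cell, and the mix of subunits sets what the channel lets through. In the mammary gland, Cx43 is known from myoepithelial and stromal cells and Cx26, Cx32 and Cx30 from the luminal epithelium, whereas epidermal keratinocytes express a wide set of connexins and vascular endothelium expresses Cx37 and Cx40. The genes described here are the connexins listed for epidermal, luminal and vascular cells (*Gja1*, *Gja4*, *Gjb1*, *Gjb2*, *Gjb5* and *Gjb6*), picked by gene symbol. Of these 6 genes, 5 were found among the 15280 genes of the table, and *Gjb1* is not analysed here.

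The expression values come from RNA-Seq of 3 parous female BK5.ATF3 mice, in which the bovine keratin 5 promoter drives the transcription factor ATF3 in basal epithelial cells. From each mouse, 1 mammary tumor (T11035, T11640 and T9232) and the adjacent normal mammary gland (M11035, M11640 and M9232) were sequenced, so n = 3 for each tissue. The females had borne 1 litter, the tumors appeared at ages from 6 to 12 months, and tissue was taken once a tumor measured 1.5 cm. Both tissues carried the transgene, no wild-type gland was part of the comparison, and each library is a piece of whole tissue. Values of a tissue are listed in the order M11035, M11640, M9232 or T11035, T11640, T9232 throughout. Library depth ran from 4750989 to 7806908 fragments assigned to genes, and 3 fragments, the floor of detection used here, correspond to between 0.393 and 0.610 CPM. The epithelial keratin *Krt8* was present in all 6 libraries, at between 11.4 and 77.6 CPM. Skeletal muscle genes summed to 3679 CPM in normal gland M11035 and 1455 CPM in M11640 but to 4.24 CPM in M9232. Results are therefore also given without M11035 and M11640 where they moved. That fit leaves M9232 as the only gland, so it holds no spread between glands.

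The sequences just upstream of those of the 5 described connexin genes that were higher in tumors are shown first. *Gja5*, a connexin outside this list that was also higher, is treated below and its promoter is not shown. RefSeq promoters (250 bases before to 50 after the annotated start, GRCm38.p6) were matched for each of the 5 genes and for 8 of the 9 connexins examined. Capitals mark matches to the AP-1 heptamer TGAGTCA, the GC box GGGCGG or the TATA box TATAAA, on either strand. The sequences run 5′ to 3′ in the direction of transcription.
Gja1 (chr10:56377050-56377349, plus strand): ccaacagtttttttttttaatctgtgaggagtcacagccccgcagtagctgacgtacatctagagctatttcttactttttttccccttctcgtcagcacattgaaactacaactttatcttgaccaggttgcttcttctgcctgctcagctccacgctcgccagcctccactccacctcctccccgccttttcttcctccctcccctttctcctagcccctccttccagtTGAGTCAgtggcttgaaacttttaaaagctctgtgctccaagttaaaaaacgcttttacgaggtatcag
Gjb2 (chr14:57104653-57104952, minus strand): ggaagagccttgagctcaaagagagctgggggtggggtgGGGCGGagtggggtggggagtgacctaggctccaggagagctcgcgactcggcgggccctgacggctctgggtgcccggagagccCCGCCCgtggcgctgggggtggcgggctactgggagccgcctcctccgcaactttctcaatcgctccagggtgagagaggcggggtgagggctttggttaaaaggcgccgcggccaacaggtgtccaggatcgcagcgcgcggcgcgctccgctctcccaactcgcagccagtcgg
Gjb5 (chr4:127358115-127358414, minus strand): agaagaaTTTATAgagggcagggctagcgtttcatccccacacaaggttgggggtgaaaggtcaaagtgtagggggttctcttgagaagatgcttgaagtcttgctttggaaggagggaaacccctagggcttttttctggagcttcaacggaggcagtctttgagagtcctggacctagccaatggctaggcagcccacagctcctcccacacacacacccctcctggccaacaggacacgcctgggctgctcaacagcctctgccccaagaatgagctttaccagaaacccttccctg
Gjb6 (chr14:57133562-57133861, minus strand): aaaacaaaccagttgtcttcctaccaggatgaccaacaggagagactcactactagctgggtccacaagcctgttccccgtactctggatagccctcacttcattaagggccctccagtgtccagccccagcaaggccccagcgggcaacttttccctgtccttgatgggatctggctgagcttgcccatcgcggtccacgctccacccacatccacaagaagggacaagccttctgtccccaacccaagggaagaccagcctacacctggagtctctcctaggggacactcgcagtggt
The AP-1 heptamer was found in *Gja1*, starting 19 bases before the annotated start, and in none of the other 4 promoters of the described genes. It occurs in 5.20% of 32851 mouse promoters of this length. The *Gjb2* promoter held 2 GC boxes, 211 and 126 bases before the start, and that of *Gja4* held 1, against 35.7% of all promoters with at least 1. A TATA box on the opposite strand was found 243 bases before the start of *Gjb5*, a motif present in 13.6% of promoters. The cyclic AMP response element TGACGTCA, found in 1.79% of promoters, was absent from these 5 windows, and *Gjb6* had no match to any of these motifs. These are matches of letters and no binding was measured.

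The comparison of tumors with glands used limma on log2(CPM + 0.5), and a gene was called a DEG at FDR of at most 0.05 and FC of at least 2. Of the 5 connexins, 4 were upregulated DEGs (*Gja1*, *Gjb2*, *Gjb5* and *Gjb6*) and 0 were downregulated, where 14.5% of all genes were upregulated and 13.7% downregulated (28.2% in either direction). *Gja4* did not pass the threshold. The members were chosen with earlier results of these data known, and *Gjb5* met the authors' fragment minimum only through the tumors. The count of DEGs among them is therefore a description and not a test of the family. The median log2 fold change (log2FC) of the 5 genes was 3.06, also with *Gjb5* set to its lower bound, and that of all genes was -0.0028. In the same 4 genes the 3 tumors lay above the 3 normal glands without overlap, as in 27.6% of all genes, and none of the 5 had all tumors below the glands, as in 26.3% of all genes.

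*Gja1* encodes Cx43, the most widely expressed connexin, and lies on chromosome 10 (56097106 to 56110225, plus strand, mm9) with its coding sequence in 1 exon. Its expression was 148, 233 and 93.6 CPM in the normal glands against 923, 1114 and 699 CPM in the tumors. The lowest tumor stood clearly above the highest gland, and M11640 and T11640 had the highest and M9232 and T9232 the lowest value of their tissue. The log2FC was 2.59 (SE 0.31, with FDR-adjusted p = 3.00e-04 by limma), from 158 ± 70.5 to 912 ± 208 CPM (SD, n = 3). Within the 3 mice, the tumor exceeded its own gland by 2.63, 2.25 and 2.89 on the log2 scale. Without M11035 and M11640, with M9232 as the only gland, the log2FC of *Gja1* was 3.25.

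*Gjb2* and *Gjb6* encode Cx26 and Cx30, a pair of related subunits that can join in the same channel and are best known from the inner ear and from skin. They lie 18601 bp apart on the minus strand of chromosome 14 (57717437 to 57723539 and 57742140 to 57752448, mm9), each with 1 coding exon. *Gjb2* was at 11.2, 8.59 and 45.7 CPM in the glands and at 117, 192 and 124 CPM in the tumors. M9232 stood well above the other two, and all 3 tumors stood above it. The log2FC of *Gjb2* was 3.06 (SE 0.54, with FDR-adjusted p = 0.00231 by limma), from 21.8 ± 20.7 to 145 ± 41.5 CPM. Without M9232 it was 3.78 (FDR-adjusted p = 1.72e-05 by limma). Without M11035 and M11640, the glands with high skeletal muscle genes, it was 1.62, with M9232 as the only gland.

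*Gjb6* followed the same order of glands. It had 2.64, 1.16 and 6.02 CPM in the glands and 51.0, 83.7 and 55.7 CPM in the tumors. Its log2FC was 4.27 (SE 0.45, with FDR-adjusted p = 1.45e-04 by limma), and the tumor mean of 63.5 ± 17.7 CPM was 19.4 times the gland mean of 3.27 ± 2.49 CPM. Without M11035 and M11640, with M9232 as the only gland, its log2FC was 3.26.

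*Gjb5* encodes Cx31.1, a connexin known from keratinocytes, and lies on the minus strand of chromosome 4 (127032053 to 127035425, mm9). No fragment of *Gjb5* was found in any of the 3 normal glands, whereas the tumors had 20, 50 and 52 fragments, or 3.72, 6.55 and 7.79 CPM. Set against the floor of 3 fragments per gland library, the tumor level of *Gjb5* was at least 11.9-fold higher, a bound that covers counting error only. It passed the test (FDR-adjusted p = 9.87e-05 by limma). With 0 fragments in the glands, *Gjb5* met the authors' minimum of 10 fragments in all only through the tumors. The direction of its change was therefore fixed in advance, and its p-value is no independent support. Its fitted log2FC of 3.65 depends on the pseudocount and was 5.87 with pseudocount 0.1 and 2.76 with pseudocount 1.

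*Gja4* encodes Cx37, known from arterial endothelium, and lies 40770 bp from *Gjb5* (chromosome 4, 126988665 to 126991283, minus strand, mm9). It was scarce in every library, at 1.02, 2.31 and 2.05 CPM in the glands and at 1.12, 1.31 and 0.749 CPM in the tumors. The tissues overlapped, and the log2 differences within mice were 0.092, -0.64 and -1.03. The log2FC was -0.52 with a 95% confidence interval from -1.36 to 0.31 (FDR-adjusted p = 0.283 by limma), so that a rise as large as in the other 4 genes lay outside this interval and a fall by more than 2-fold did not.

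**Figure D1:**
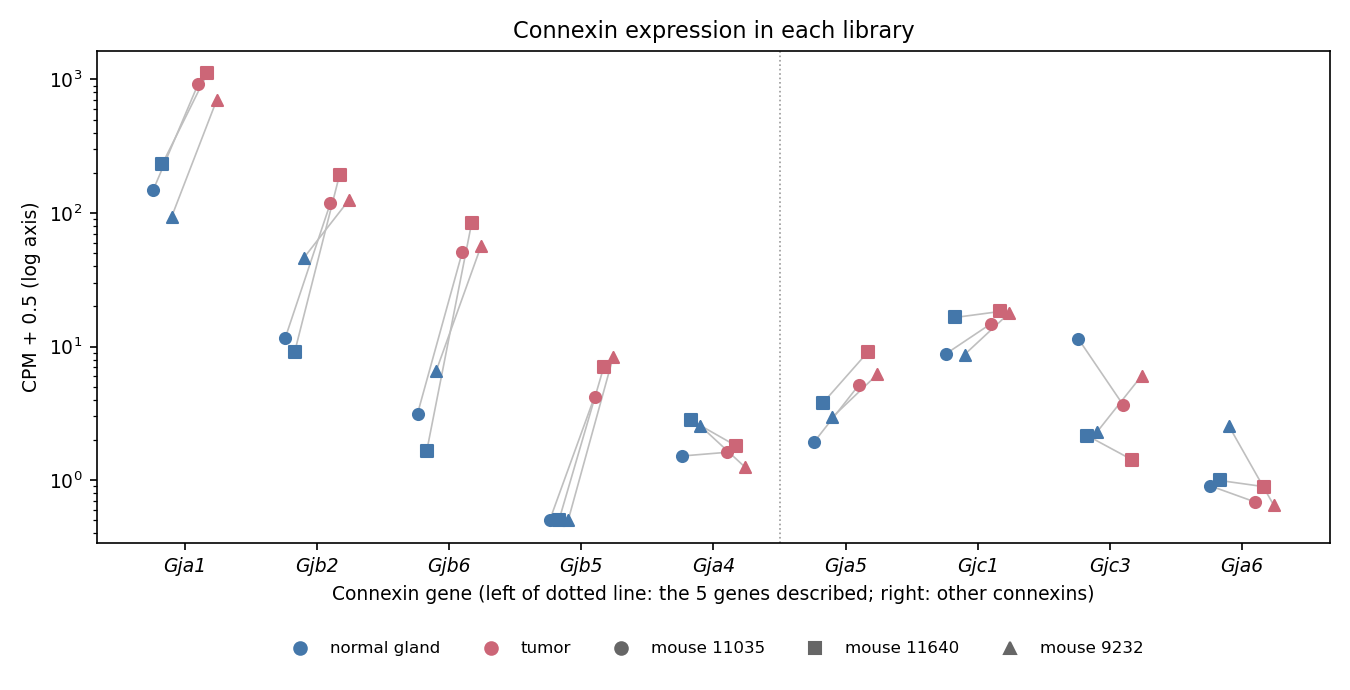
Expression of 9 connexin genes in each library, as CPM + 0.5 on a log axis, with normal glands in blue, tumors in red, 1 symbol per mouse and grey lines joining the libraries of a mouse. The tumors sit above all glands for *Gja1*, *Gjb2*, *Gjb6* and *Gjb5*, while the values of *Gja4* overlap between the tissues.

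The related sequences of *Gjb2* and *Gjb6* raise the question whether fragments could be counted on the wrong gene. Their coding sequences were 75.8% identical over 681 aligned bases, and reads were 76 bases long. No stretch of 76 bases in the annotated protein-coding transcripts of the 5 genes had an exact match in an annotated protein-coding transcript of another gene. Noncoding transcripts and the rest of the genome were not searched, and matches with differing bases were not counted. The window of 76 coding bases in which the pair differs least, coding bases 214 to 289 of both (mm9), is shown with the 10 differing bases in capitals, and the longest identical run anywhere in the coding sequences of the pair was 20 bases.
Gjb2 (chr14:57719298-57719373, minus strand): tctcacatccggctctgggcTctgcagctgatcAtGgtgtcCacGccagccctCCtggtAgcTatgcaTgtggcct
Gjb6 (chr14:57743351-57743426, minus strand): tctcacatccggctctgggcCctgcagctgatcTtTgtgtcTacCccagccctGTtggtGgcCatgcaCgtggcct
Exons of the 5 genes overlapped no exon of another annotated gene.

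To compare connexins with each other, CPM were divided by the length of the longest annotated transcript. In CPM per kilobase, *Gja1* was the most abundant of the 9 connexins examined in both tissues, at 51.0 ± 22.7 in normal glands and 294 ± 66.9 in tumors. *Gjb2* came next by its mean, at 9.07 ± 8.61 and 60.1 ± 17.2, and its range did not overlap that of *Gja1* in either tissue. In the glands, however, *Gjb2* overlapped *Gjc1* (4.69 ± 1.93), which was the higher of the pair in M11640 (6.92 against 3.57). In the tumors *Gjb6* followed (30.2 ± 8.41 CPM per kilobase), and its range overlapped neither that of *Gjb2* above it nor that of *Gjc1* below it (7.14 ± 0.823). *Gjb5* in tumors (3.50 ± 1.21 CPM per kilobase) lay below *Gjc1* and overlapped *Gja5* (1.73 ± 0.565). In the glands the level of *Gjb6* (1.55 ± 1.18) overlapped those of *Gjc3* and *Gja4* (1.37 ± 1.52 and 1.06 ± 0.407). The sum of the 5 genes rose from between 53.2 and 80.7 CPM per kilobase in the glands to between 308 and 483 in the tumors.

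The make-up of this sum was similar in the 3 tumors and uneven in the glands. *Gja1* made up 88.0%, 93.2% and 56.6% of the sum in the glands and 79.7%, 74.3% and 73.0% in the tumors. *Gjb2* made up 8.57%, 4.43% and 35.7% of it in the glands and 13.1%, 16.6% and 16.7% in the tumors. For these genes the shares of the tissues overlapped (exact permutation p = 0.9 and 1, two-sided). Without M9232, however, the *Gja1* share was lower by 14.9 percentage points and the *Gjb2* share 8.96 points higher in the tumors, without overlap (exact permutation p = 0.1, the smallest possible). The share of *Gjb6* was higher in every tumor than in every gland, at 7.77% ± 1.13 against 2.79% ± 2.38, and that of *Gja4* was lower, at 0.161% ± 0.0166 against 1.70% ± 0.588. *Gjb5*, without a fragment in any gland, made up 0% in glands and between 0.580% and 1.47% in tumors, so the direction of its share was fixed. The exact permutation test gave p = 0.1 for each of these 3 genes, the smallest value that 3 against 3 libraries allow. Over the 5 shares the adjusted p was 0.167 for these 3 genes. A share falls when other members rise, and the level of *Gja4* itself did not pass the test.

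**Figure D2:**
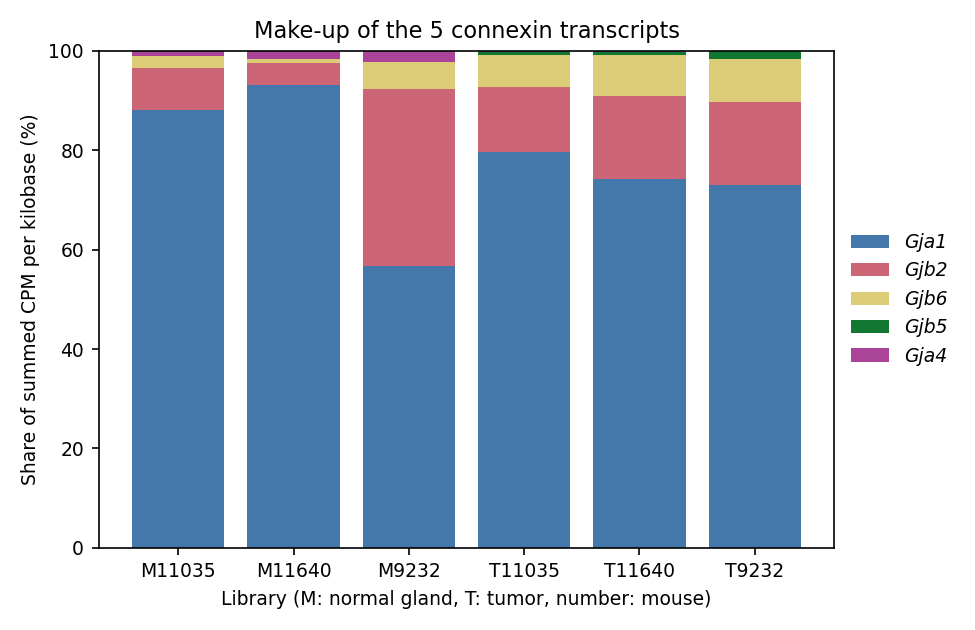
Share of each of the 5 connexin genes in their summed CPM per kilobase, in percent, stacked for the 3 normal glands (M) and the 3 tumors (T). Normal gland M9232 has a *Gja1* share of 56.6% and a *Gjb2* share of 35.7%, while *Gja1* makes up between 73.0% and 79.7% in the tumors.

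Connexins were also compared with each other within a library. The log2 ratio of *Gjb6* to *Gjb2*, each as CPM + 0.5, was -1.89, -2.46 and -2.82 in the glands and -1.20, -1.20 and -1.15 in the tumors. The SD of this ratio was 0.028 in the tumors and 0.47 in the glands, and *Gjb6* gained 1.21 on *Gjb2* on the log2 scale. *Gjb6* rested on 13, 7 and 44 fragments in the glands, against 274, 639 and 372 in the tumors. Counting error is therefore larger in the gland ratios, and its part in their spread was not tested. Against *Gja1*, *Gjb6* gained 1.68, or 0.87 without M11640 and 2.51 without M9232. The gain of *Gjb2* on *Gja1* was 0.46, but -0.31 without M11640 and 1.52 without M9232. *Gjb5* gained 4.17 on *Gja4*, which lies near it on chromosome 4. No gland had a fragment of *Gjb5*, so the size of this gain depends on the pseudocount and its direction rests on those absent fragments. Of these 4 ratios, chosen after the values were seen, *Gjb6* over *Gjb2* and *Gjb5* over *Gja4* did not overlap between tissues (exact permutation p = 0.1, adjusted p = 0.2). The others were *Gjb6* and *Gjb2* over *Gja1* (exact permutation p = 0.2 and 0.7).

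Of 4 other connexins examined, 1 was an upregulated DEG and 0 were downregulated, and the median of their log2FC was 0.18. The upregulated gene was *Gja5*, which encodes Cx40 of arterial endothelium. *Gja5* had 1.42, 3.30 and 2.46 CPM in the glands and 4.65, 8.65 and 5.69 CPM in the tumors (log2FC 1.25, SE 0.35, with FDR-adjusted p = 0.0197 by limma). The call was not kept without M11035, T11640 or T9232, with log2FCs of 0.98, 1.02 and 1.30 (FDR-adjusted p = 0.05, 0.0884 and 0.0518 by limma). Without M11035 and M11640 together, the log2FC of *Gja5* was 1.16. Its exons overlap those of *Gpr89* on the opposite strand, whose fragments cannot be told apart where the counting did not use strand. *Gjc1*, *Gjc3* and *Gja6* did not pass, with log2FCs of 0.64 (95% confidence interval 0.0077 to 1.28), -0.28 (-1.94 to 1.38) and -0.84 (-1.96 to 0.27). *Gja6* was at or under the floor in 2 glands and all 3 tumors. Of the pannexins, which form single-membrane channels that release ATP, *Panx1* had 8.80 ± 3.63 CPM in glands and 13.6 ± 2.30 CPM in tumors and did not pass (log2FC 0.68, 95% confidence interval -0.086 to 1.44, FDR-adjusted p = 0.139 by limma).

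**Figure D3:**
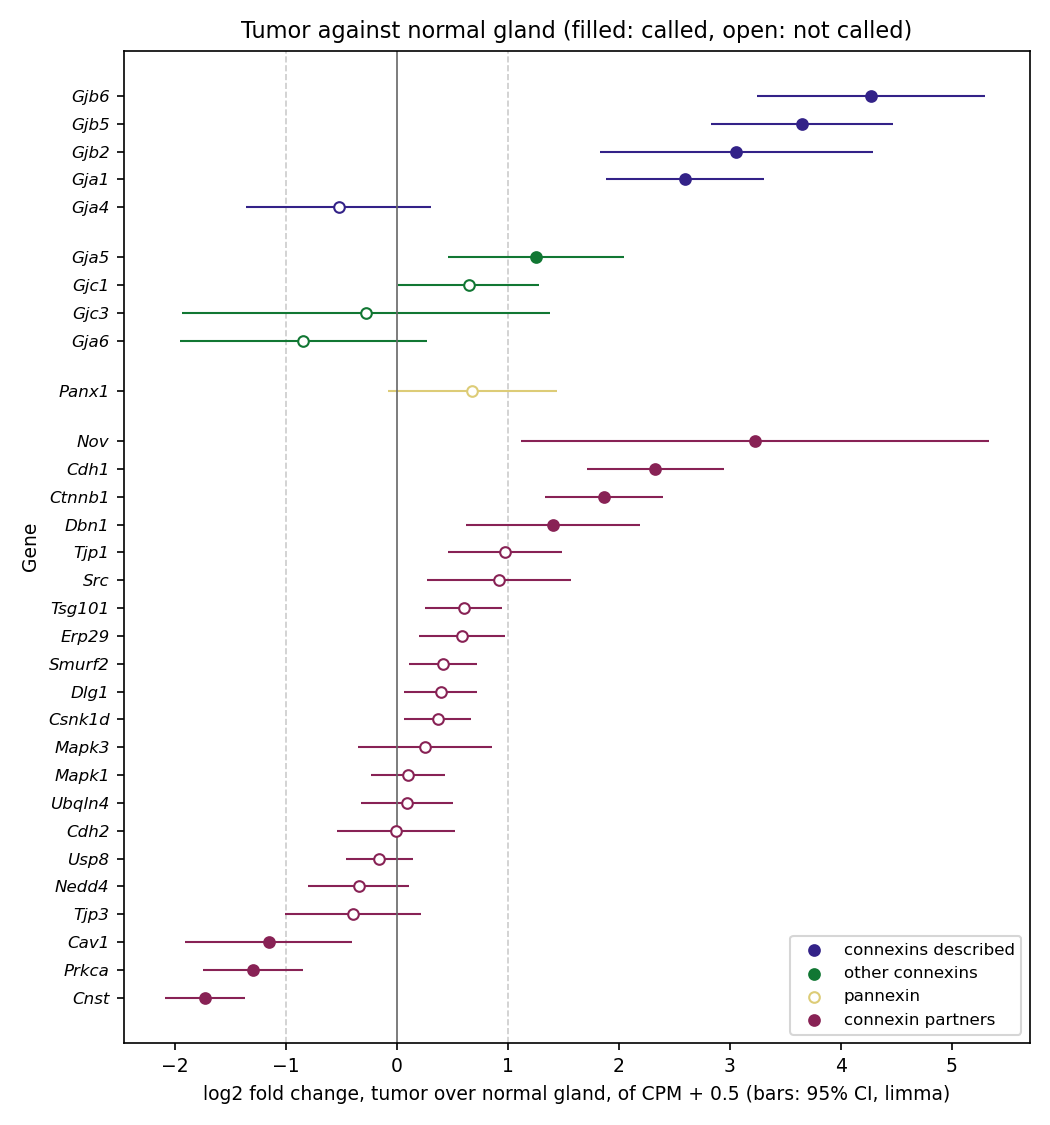
Log2FC of CPM + 0.5, tumor over normal gland, with 95% confidence intervals from limma, for the 5 connexins described, 4 other connexins, *Panx1* and 21 connexin partners. Filled points were called DEGs, and dashed lines mark a 2-fold change. The 4 upregulated connexins lie between 2.59 and 4.27, where the value of *Gjb5* depends on the pseudocount.

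Connexin channels depend on proteins that sort, anchor and modify them, and 21 such partners were examined. Of these, 4 were upregulated DEGs and 3 were downregulated, and their median log2FC was 0.36. The corresponding shares over all genes are 14.5% and 13.7%. Among the upregulated partners was *Cdh1*, the E-cadherin gene, whose adhesion precedes gap junction assembly. It rose from 77.5 ± 32.6 to 374 ± 64.4 CPM (log2FC 2.33, with FDR-adjusted p = 2.49e-04 by limma), and without M11035 and M11640 the log2FC of *Cdh1* was 1.69. *Ctnnb1*, the gene of β-catenin, had a log2FC of 1.86 (FDR-adjusted p = 3.68e-04 by limma). *Nov*, which encodes the Cx43-binding matricellular protein CCN3, had 0.407, 10.1 and 3.69 CPM in the glands and 9.86, 66.8 and 46.6 CPM in the tumors. The tissues overlapped for *Nov*, but each tumor exceeded the gland of its own mouse, by 3.51, 2.67 and 3.49 on the log2 scale. Its log2FC was 3.23 (FDR-adjusted p = 0.0225 by limma, or 1.54e-04 with the mouse as a block). Without the block it ranged from 2.27 to 4.04 with a single library left out. It was no longer called without T11640 (2.69) or without T9232 (2.95), with FDR-adjusted p = 0.0954 and 0.0874 by limma. Without M11035 and M11640 together it was 2.93.

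*Tjp1* encodes ZO-1, a scaffold protein that binds the tail of Cx43. It was higher in all tumors than in all glands and stayed just under the FC threshold (log2FC 0.97, with FDR-adjusted p = 0.00896 by limma). *Tjp1* passed that threshold without M11640, M9232 or T11035, with log2FCs of up to 1.14. *Cnst* encodes consortin, a receptor that sorts connexins to the plasma membrane, and it had the largest fall of the partners, from 97.0, 121 and 93.7 CPM in the glands to 31.3, 31.6 and 29.5 CPM in the tumors (log2FC -1.73, SE 0.16, with FDR-adjusted p = 6.21e-05 by limma). *Prkca*, the gene of a kinase that phosphorylates Cx43, had a log2FC of -1.30 (FDR-adjusted p = 0.00101 by limma). *Cav1*, the caveolin gene, had one of -1.16 (FDR-adjusted p = 0.0218 by limma), and was no longer called without M11640, T11035 or T11640, nor without M11035 and M11640 together, with values between -0.58 and -1.07.

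The 2 tissues differed in cell types that carry connexins, and in whole tissue more cells of a type and more RNA per cell cannot be told apart. The 8 keratinocyte markers were all upregulated DEGs (7 without M11035 and M11640), and their sum was between 43.9 and 99.9 CPM in the glands and between 3089 and 4223 CPM in the tumors. Of these, *Lor* was at 0 in all 3 glands and *Ivl* in M11035. The list is not specific to keratinocytes, because the paper names *Krt5* as a keratin of the myoepithelial pathway. *Krt5*, *Krt14* and *Trp63* had 36.1, 19.8 and 37.2 CPM in M9232, where the list summed to 99.9 CPM. *Krt1* had the largest rise (log2FC 8.64) and *Trp63* the smallest (3.41), so the log2FCs of *Gjb2* and *Gja1* were below those of all 8 keratinocyte markers. *Gjb6* (4.27) lay above *Trp63* and *Lor* (3.84) and below the rest. *Gjb5* (3.65, dependent on the pseudocount) lay between *Trp63* and *Lor*. The part of these cells in the higher *Gjb2*, *Gjb5*, *Gjb6* and *Gja1* was not tested.

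The 6 fibroblast markers, of a cell type that expresses Cx43, summed to between 917 and 3616 CPM in the glands and between 8436 and 9059 CPM in the tumors, and 3 of them were upregulated DEGs, led by *Col1a1* (log2FC 4.63), while *Pdgfra* was lowest (-0.23). The luminal markers summed to between 443 and 879 CPM in the glands and between 448 and 567 CPM in the tumors, with 4 of 8 upregulated and 3 downregulated. Without M11035 and M11640 these counts were 0 and 2. *Krt7* was highest (log2FC 2.87) and *Prlr* lowest (-3.11). M9232, the gland with the highest *Gjb2* and *Gjb6*, also had the highest sum of the 3 glands for luminal (879 CPM), myoepithelial (744 CPM), keratinocyte (99.9 CPM) and macrophage (473 CPM) markers. Of the 6 myoepithelial markers, 0 were upregulated (1 without M9232) and 3 downregulated, with sums between 353 and 744 CPM in the glands and between 194 and 239 CPM in the tumors. In that list *Tagln* was highest (0.82) and *Oxtr* lowest (-4.83). *Krt5*, counted above with the keratinocyte markers, is not in that list and had a log2FC of 5.48. The part of these cell types in the connexin levels was not tested.

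The endothelial markers, set beside *Gja4* and *Gja5*, summed to between 386 and 525 CPM in the glands and between 227 and 318 CPM in the tumors. Of the 9 genes, 0 were upregulated and 3 downregulated, from *Emcn* (log2FC 0.28) to *Tek* (-1.35), and none was at 0 in any library. The count of 3 fell to 1 without M11640 or T11035. Of 5 arterial markers, 1 was upregulated (*Efnb2*, 1.34) and 2 were downregulated (1 without M11640, T11035 or T9232, and 3 without M11035), with *Bmx* lowest (-1.41), and of 6 mural cell markers 1 was upregulated (*Pdgfrb*, 1.56) and 0 were downregulated (1 without M9232 or T9232), with *Abcc9* lowest (-0.90). All 7 adipocyte markers fell, from *Lipe* (-3.23) to *Adipoq* (-7.00), as did all 6 lymphocyte markers. Of 5 macrophage markers 1 was called up and 1 down, the latter not without M11640, M9232, T11035 or T11640. Of 5 skeletal muscle genes 1 was called down by limma and 5 by edgeR and by DESeq2, and limma called 5 without M9232 and 0 without any other single library. How far such cells shift the CPM of connexins was not tested.

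**Figure D4:**
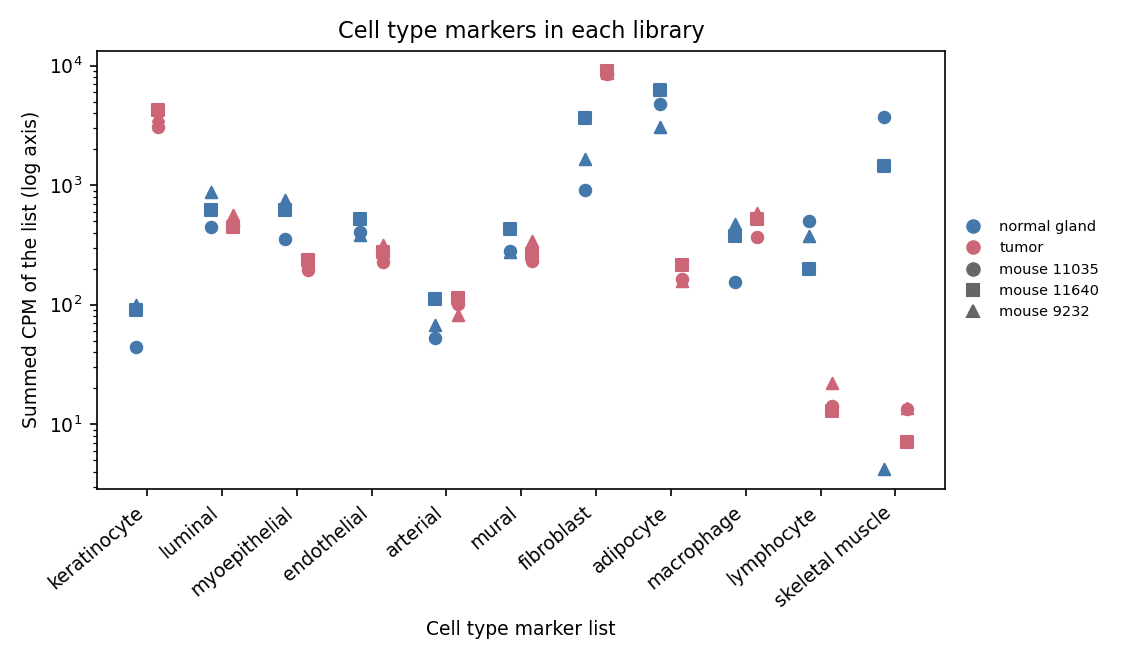
Summed CPM of 11 lists of cell type markers in each library, on a log axis, with normal glands in blue, tumors in red and 1 symbol per mouse. The keratinocyte sums lie between 3089 and 4223 CPM in the tumors and at most 99.9 CPM in the glands, and the skeletal muscle sums of the glands run from 4.24 to 3679 CPM.

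The genes whose log2 profile over the 6 libraries was nearest to that of each connexin were sought among 14707 other genes whose mean level reached 1 CPM, by the root-mean-square (RMS) difference after centring each gene on its own mean. The nearest to *Gja1* were *Plod2*, a collagen lysyl hydroxylase (RMS difference 0.19), *Zfp185* (0.20) and *Fkbp10*, a collagen chaperone (0.22). Nearest to *Gjb2* were *Lpo*, the gene of lactoperoxidase (0.29), *Tnfrsf11b*, that of osteoprotegerin (0.29), and *Slc5a1*, a sodium-glucose transporter (0.31). *Gjb6* lay nearest to *Mboat2* (0.27), *Ankrd22* (0.29) and *Tgfa*, an EGF receptor ligand (0.32). For *Gjb5* these were *Col8a2*, *Aadacl2* and *Egln3*, an oxygen-sensing prolyl hydroxylase (0.18, 0.19 and 0.19). No gland had a fragment of *Gjb5*, so its profile depends on the pseudocount, and its nearest genes were sought at 0.5 only. *Egln3*, by contrast, had mean levels of 15.9 CPM in glands and 186 CPM in tumors. For the scarce *Gja4* the nearest genes were *D3Ertd254e*, *Itih2* and *Fars2* (0.076, 0.10 and 0.11), and the pseudocount narrows its profile too. These are descriptions over 6 libraries of 3 mice.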

How the data were processed

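RNA-Seq of 3 mammary tumors and the 3 adjacent normal glands of the same mice was used, grouped by the labelled tissue type. The authors mapped read pairs to mm9 with TopHat2 2.0.3, counted fragments on RefSeq genes with HTSeq 0.5.3p9, removed genes under 10 fragments in all, and deposited a signal per gene, CPM on the effective library size of edgeR 3.6.1. Use of strand in the counting is not given in the sources used here. In each library 100% of the deposited values were whole multiples of 1 fragment (relative tolerance 1e-06), so fragments were recovered.

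limma 3.58.1 (R 4.3.3) was fitted with a trended prior variance to log2(CPM + 0.5) of all 15280 genes, two-sided, with Benjamini-Hochberg adjustment, in place of a count test because the deposited values are normalized. The fit was planned for CPM and kept for this signal. DEGs had FDR of at most 0.05 and FC of at least 2. The test was checked on simulated data with independent libraries, not paired by mouse. Changes were placed only in genes with a mean above those of *Gja4* and *Gjb5*, so the check does not cover genes as scarce as these. p-values reflect the spread between 3 mice. The members and lists were chosen with earlier results of these data known. Named genes were the connexins and pannexins examined, the 3 partners with the largest rise and fall among DEGs, the extremes of each marker list and the 3 nearest profiles, with *Tjp1* added after its values were seen. A few listed genes are not reported here. Positions and lengths came from GENCODE vM1 (mm9). Alternatives were other pseudocounts, a minimum of 1 CPM, other scalings, edgeR 4.0.16, DESeq2 1.42.0, the mouse as a block and leaving out libraries. The libraries of a mouse are paired by animal. Over 14712 genes, the deviations of its tumor and gland from their tissue means correlated with r = 0.107 in mouse 11035, 0.151 in mouse 11640 and 0.0168 in mouse 9232.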

Additional observations from a re-analysis of the deposited data

How the results depend on the processing

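The counts of 4 upregulated and 0 downregulated genes among the 5 connexins were the same under all 16 alternatives, which were 2 pseudocounts, a minimum of 1 CPM, 2 scalings, edgeR and DESeq2 on recovered fragments, the mouse as a replicate block in limma or edgeR, each of 6 libraries left out, and M11035 and M11640 left out together. The last, the edgeR block and the ratios of connexins were added after the data were seen. With the mouse as a replicate block, limma called 2205 genes up and 2093 down, against 2212 and 2097 without it, and the block changed no call of a connexin, pannexin or partner. On recovered fragments, edgeR called 2238 genes up and 2224 down and DESeq2 2240 and 2196. With M11035 and M11640 left out, which leaves 1 gland whose spread is assumed to be like that of the tumors, 1 of the 4 other connexins was called lower (*Gja6*, log2 fold change -1.79, adjusted p = 0.0311, limma), against 0 with all libraries, and the cause was not tested. The count of higher genes among these 4 (*Gja5*) was 0 there and between 0 and 1 with single libraries left out. The difference in the share of *Gja4* between tumor and gland was -1.54 percentage points, -0.912 with coding length and -0.893 without length scaling. *Gjc3*, not called, changed sign without M11035 or T11640, and *Cdh2* did so in values near 0. The ratio of *Gjb5* to *Gja4* moved with the pseudocount, from 3.18 to 6.54. Depth limits *Gja4*, *Gja6*, and *Gjb5* in the glands.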
